A study of Mus musculus with 721 samples.

Results

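10 genes that the FGF-ERK pathway induces and that mostly act back on it were followed through early mouse development: the ETS transcription factors Etv4 and Etv5, the immediate-early factor Egr1, the dual-specificity phosphatases Dusp4 and Dusp6, the Sprouty genes Spry1, Spry2 and Spry4, and the Sprouty-related genes Spred1 and Spred2. They were chosen by symbol, and each of the 10 has 1 row among the 24483 rows of the count table. The data are single-cell RNA-seq libraries of 721 hand-picked cells from Wild Type C57Bl/6Babr mice, with no treatment. There were 99 cells from 10 embryos at E3.5, 105 from 5 embryos at E4.5, 267 from 9 embryos at E5.5 and 250 from 13 embryos at E6.5, where the cells titled E6.75 were counted as well. These 37 embryos are the combinations of title age, plate name and embryo number in the labels, and the number of separate animals may be lower. One of the 10 at E3.5 is a set of 9 cells with no embryo number, which may come from several embryos and was counted as 1. At E3.5 and E4.5 the outer trophectoderm had been removed by immunosurgery, so the sampled cells stand for the inner cell mass, the epiblast and the primitive endoderm (PrE) and not for the whole embryo. 128 of the wells were labelled as holding a pair of cells.

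FGF ligands bind receptor tyrosine kinases, and the signal runs through Ras, Raf and MEK to the kinase ERK, which switches on transcription of a set of early targets. Several of these targets damp the signal: Sprouty and Spred proteins hold back Ras and Raf activation, and Dusp4 and Dusp6 remove the activating phosphates from ERK. In the blastocyst, epiblast cells secrete Fgf4, and FGF-ERK signalling is known to drive inner cell mass cells towards PrE. The transcripts are therefore used as a readout of ERK activity, although RNA levels also depend on other inputs and the activity of ERK itself was not measured here.

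4 members were called in the step from E3.5 to the E4.5 epiblast, described below, and have a window around their start site in the RefSeq table (build GRCm38.p6, from 250 bases before the start to 50 after it). Their windows are shown so that the regulatory sequence of the genes that moved can be read beside their values. The window of Dusp6 is chr10:99262981-99263280 on the plus strand, that of Etv5 chr16:22439521-22439820 on the minus strand, that of Spred1 chr2:117120821-117121120 on the plus strand and that of Spry2 chr14:105896770-105897069 on the minus strand. Capitals mark matches on either strand to 4 motifs: CCGGAA, the core bound by ETS factors, TGACGTCA, the CRE, its shorter form TGACG, which lies within the CRE, and GGGCGG, the GC box.
Dusp6: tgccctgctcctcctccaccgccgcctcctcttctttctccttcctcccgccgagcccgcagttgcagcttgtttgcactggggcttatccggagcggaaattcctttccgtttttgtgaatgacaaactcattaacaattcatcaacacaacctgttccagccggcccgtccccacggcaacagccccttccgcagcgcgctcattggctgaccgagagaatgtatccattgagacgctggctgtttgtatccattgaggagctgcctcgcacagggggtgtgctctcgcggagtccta
Etv5: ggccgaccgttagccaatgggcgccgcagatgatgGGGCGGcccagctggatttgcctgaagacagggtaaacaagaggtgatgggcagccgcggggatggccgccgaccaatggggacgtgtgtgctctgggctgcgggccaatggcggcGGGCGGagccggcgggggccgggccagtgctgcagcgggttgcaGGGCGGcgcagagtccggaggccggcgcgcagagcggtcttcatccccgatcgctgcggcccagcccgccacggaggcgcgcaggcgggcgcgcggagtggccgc
Spred1: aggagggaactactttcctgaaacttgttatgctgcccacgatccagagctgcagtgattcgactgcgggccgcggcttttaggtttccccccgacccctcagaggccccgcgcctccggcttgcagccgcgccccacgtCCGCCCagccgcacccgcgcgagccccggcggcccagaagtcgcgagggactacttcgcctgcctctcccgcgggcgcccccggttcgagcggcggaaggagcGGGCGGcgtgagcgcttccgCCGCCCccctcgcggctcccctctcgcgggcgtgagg
Spry2: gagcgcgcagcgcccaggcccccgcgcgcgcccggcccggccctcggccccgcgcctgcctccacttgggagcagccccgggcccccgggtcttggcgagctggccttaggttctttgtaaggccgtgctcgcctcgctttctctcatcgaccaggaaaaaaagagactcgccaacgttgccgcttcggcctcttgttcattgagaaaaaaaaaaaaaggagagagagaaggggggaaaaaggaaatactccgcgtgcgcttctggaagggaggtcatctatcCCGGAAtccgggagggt

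Spry2 held 1 match to CCGGAA, which begins 34 bases after the start site, and 14.9% of all 32851 windows in the table hold this motif. Etv5 and Spred1 held 3 GC boxes each, against 35.66% of all windows with at least 1, and Dusp6 held no match to any of the 4. The remaining windows were those of Spry1, with 1 GC box, and Spred2, with 1 GC box and 1 match to TGACG, which 20.81% of all windows hold. TGACGTCA, held by 1.79% of all windows, was in none of the members' windows, and a second window of Etv5 held no match. The table has windows for 6 of the 10 members, and Etv4, Dusp4, Spry4 and Egr1 were not looked at. A match describes the letters only.

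Cells were grouped without using the members. The members and the FGF and ERK genes were held out of the clustering. E4.5 cells fell into an epiblast-like class of 23 and a PrE-like class of 78. At E5.5, 259 cells were named epiblast-like, with 8 named endoderm-like, and E6.5 held 158 epiblast-like, 35 endoderm-like and 26 primitive streak-like cells. The 99 cells at E3.5 were kept as 1 class, and 4 cells at E4.5 and 31 at E6.5 were left unnamed. The classes were named from marker lists, so the marker levels describe the names and do not test them. The summed level of 24 endoderm markers had a median of 20448 CPM (counts scaled to a total of 1000000) in the PrE-like and 2726 in the epiblast-like sums at E4.5, and that of 18 epiblast markers one of 7423 and 17387. The primitive streak-like cells, whose leading genes included Mesp1 and T, also carried endoderm markers, with mean log2 marker levels of 5.37 for endoderm, 4.73 for epiblast and 4.25 for streak, and 20 of the 26 cells had more endoderm than epiblast signal. The depth of a cell lay between 66896 and 3792936 counts, with a median of 692863. Counts were then added up within each embryo and class where 3 cells or more were present, which gave 50 sums with the embryo as the replicate. Which embryos shared a litter is not given in the labels, although the study states that its batches were different litters. Embryos of 1 batch may thus share a litter, and the tests treat them as independent. The p-values measure the spread between these embryos only. Levels are CPM with TMM normalization, values after ± are SDs over embryos, and differences are log2 fold changes with their SE from edgeR's quasi-likelihood test. A call needed a Benjamini-Hochberg adjusted p no higher than 0.05 together with a log2 difference beyond 1 in size, or beyond 2 between the 2 lineages of E4.5. In such sums, fewer cells with a transcript and less RNA per cell cannot be told apart.

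Of the 10 members, 4 rose and 1 fell from E3.5 to the E4.5 epiblast, while 21.4% of the 12854 genes tested were called (12.4% higher and 8.95% lower). The median log2 change of the members was 1.755, against 0.00 over all genes. Etv4, Etv5, Dusp6 and Spred1 rose, and Spry2 fell. From E4.5 to E5.5 epiblast, 2 members fell, Egr1 and Spry2, and none rose, against 2.79% lower and 3.64% higher over all genes, with a median of -1.322 for the members and 0.15 for all genes. From E5.5 to E6.5 epiblast, 1 member, Spry2, rose, against 3.58% of all genes, and the medians were 0.21 and 0.00. These comparisons share the E4.5 and the E5.5 sums, so their values are not independent of each other. Markers of trophoblast moved beside the first step: the summed level of 11 of them had a median of 721 CPM at E3.5 (175 to 1139) and 294 CPM in the E4.5 epiblast (222 to 469), with Cdx2, Hand1 and Krt7 at 0 in the latter and Ascl2 at 0 in the former, and their part in the members' values was not tested.

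**Figure D1:**
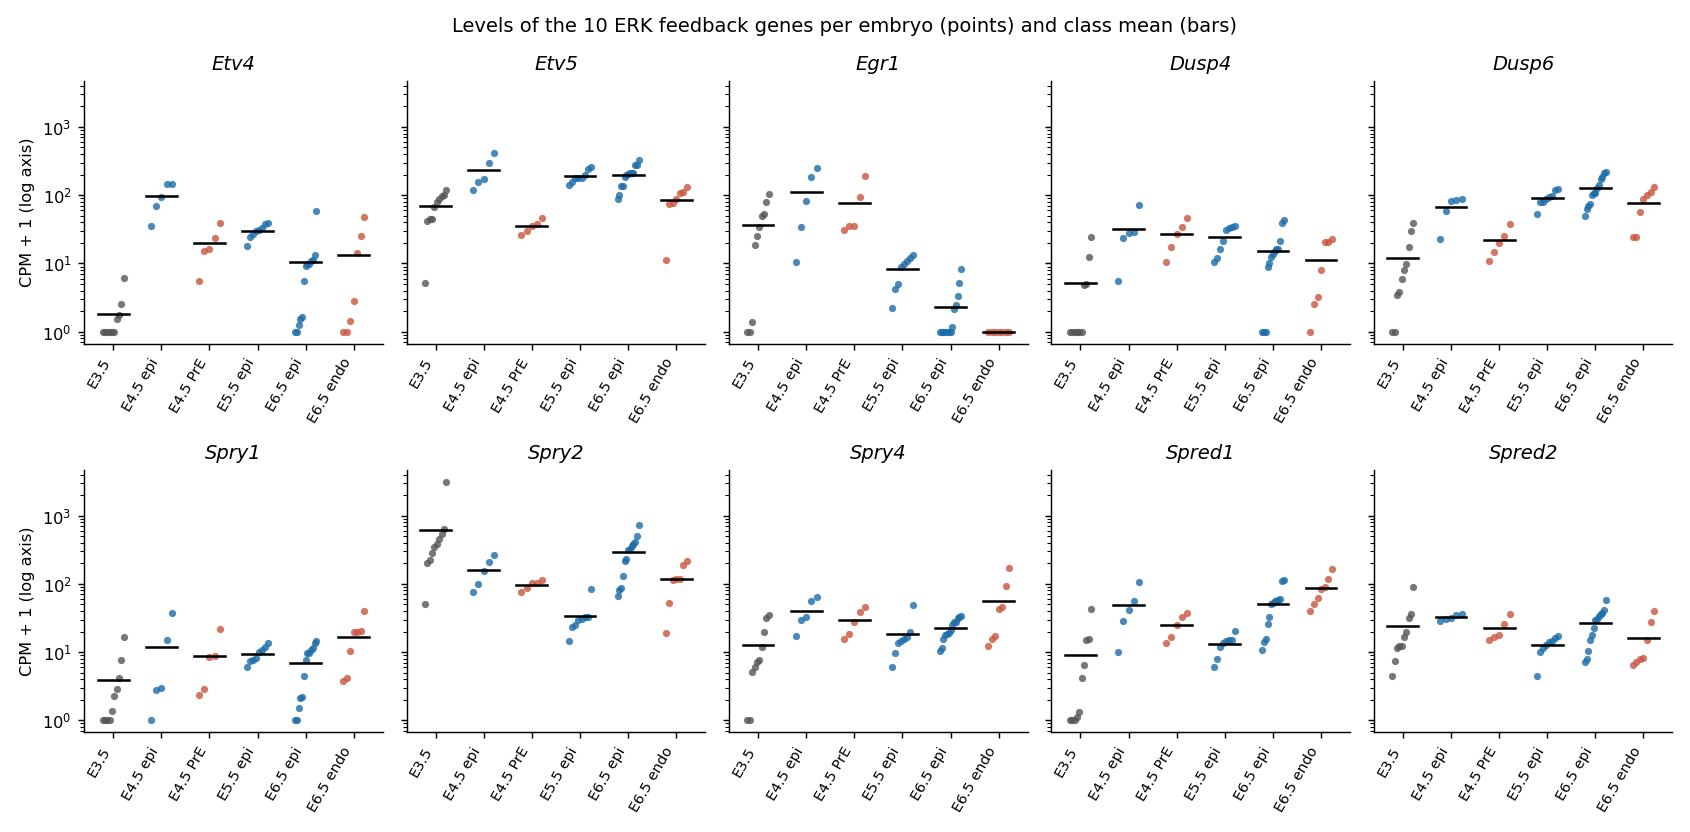
Level of each of the 10 genes (CPM + 1 on a log axis) in every embryo, by class, with a bar at the class mean. Etv4 lies between 0 and 5.02 CPM at E3.5 and between 34.4 and 145 CPM in the E4.5 epiblast, and Egr1 is at 0 in all 7 E6.5 endoderm sums.

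Etv4 and Etv5 encode closely related ETS factors of the PEA3 group and are among the most direct transcriptional targets of ERK. In GRCm38, Etv4 lies at chr11:101769742-101785371 and Etv5 at chr16:22381309-22439719, both on the minus strand. Etv4 was at 0 in 6 of the 10 embryos at E3.5 and reached at most 5.02 CPM. In the E4.5 epiblast it stood at 91.7, 144, 145, 67.4 and 34.4 CPM in the 5 embryos (96.6 ± 48.4). All 5 were above every E3.5 embryo, and the log2 fold change was 6.84 (SE 1.10, adjusted p = 9.93e-06). Etv5 was already present at E3.5, with a lowest value of 4.19, a median of 72.3 and a highest of 117 CPM (67.8 ± 34.4, n = 10). It stood at 156, 420, 294, 117 and 169 CPM in the E4.5 epiblast (231 ± 124), again with no overlap, for a log2 fold change of 1.70 (SE 0.36, adjusted p = 0.000516). The lowest E4.5 and the highest E3.5 embryo, both at 117 CPM after rounding, nearly touched. Groups that do not overlap were found for 7.73% of all genes in this comparison. Both calls were kept under each of the 15 alternatives run for them, with log2 fold changes of 6.65 to 7.25 for Etv4 and 1.34 to 1.87 for Etv5.

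The 2 ETS genes then differed in their course along the epiblast. Etv4 had a lowest value of 16.8, a median of 29.3 and a highest of 37.9 CPM at E5.5 (n = 8), and 0, 8.30 and 57.2 CPM at E6.5 (n = 13). 6 of the 8 E5.5 embryos lay below all at E4.5, and 12 of the 13 E6.5 embryos below all E5.5 embryos. Neither step passed the test (log2 fold changes, in this order, of -1.75, SE 1.01, adjusted p = 0.355, and -1.59, SE 0.80, adjusted p = 0.216). Etv5 stood at 138, 178 and 255 CPM (lowest, median and highest) in the E5.5 and 85.6, 206 and 324 CPM in the E6.5 epiblast. Its 3 epiblast stages overlapped, with log2 differences of -0.29 (SE 0.39, adjusted p = 0.776) and 0.07 (SE 0.31, adjusted p = 0.928). Among the classes with several sums, the mean of Etv5 was highest in the E4.5 epiblast. The epiblast at E6.5 (195 ± 69.5) and E5.5 (190 ± 40.3), the E6.5 endoderm (84.4 ± 38.9), E3.5 and the PrE followed in this order. Of the gaps between neighbours, only that between the E5.5 epiblast and the E6.5 endoderm exceeded the sum of the SDs on its sides.

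Dusp6 encodes a cytoplasmic phosphatase that acts on ERK, and Dusp4 a nuclear one with a broader range. Dusp6 lies at chr10:99263231-99267489 on the plus strand. Dusp6 had a lowest value of 0, a median of 5.99 and a highest of 38.3 CPM at E3.5 (11 ± 13.1, n = 10). In the E4.5 epiblast it stood at 82.1, 22, 88.0, 85.1 and 57.0 CPM (66.8 ± 27.9), and 4 of the 5 embryos were above every E3.5 embryo. The log2 fold change was 2.54 (SE 0.61, adjusted p = 0.00187). In the later epiblast its lowest, median and highest values were 51.8, 89.4 and 121 CPM at E5.5 and 48.4, 107 and 217 CPM at E6.5. 4 of the 8 E5.5 embryos were above all E4.5 epiblast sums and 6 of the 13 E6.5 embryos above all E5.5 ones, and neither step passed the test (adjusted p = 0.821 and 0.63). Dusp4 was at 0 in 6 of 10 embryos at E3.5 and stood at 27.8, 70.9, 4.5, 26.5 and 22.6 CPM in the E4.5 epiblast. Its log2 fold change of 2.79 (SE 1.10) missed the threshold (adjusted p = 0.0599), and it passed with DESeq2 (adjusted p = 0.0329). Its median was 25.1 CPM in the E5.5 and 12.6 CPM in the E6.5 epiblast.

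Egr1 encodes a zinc finger factor that is induced within minutes of ERK activation and also by handling stress. It ranged from 0 to 101 CPM at E3.5 (35.5 ± 34.7, n = 10), and the plates differed: it stood at 48.1 to 101 CPM in the 4 embryos on plate P9 and at 0 to 24.3 CPM in the 5 on plate P8. In the E4.5 epiblast the 5 embryos held 33.0, 81.5, 247, 9.48 and 185 CPM (111 ± 101). By E5.5 the lowest, median and highest values were 1.21, 8.42 and 12.3 CPM (n = 8), and the log2 fold change was -3.94 (SE 1.18, adjusted p = 0.033). 4 of the 5 E4.5 embryos lay above all E5.5 embryos, and the call was lost without wells labelled double (adjusted p = 0.0543), without E4.5 embryo 3 (0.107) or embryo 5 (0.0737). At E6.5 Egr1 was at 0 in 7 of 13 epiblast sums, with at most 7.32 CPM, and this step missed the threshold (log2 fold change -2.52, SE 0.92, adjusted p = 0.0712).

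In the endoderm Egr1 fell as well, from 30.2, 34.8, 191, 34.8 and 91.5 CPM in the PrE (76.4 ± 68.8) to 0 in all 7 sums of E6.5 endoderm-like cells. The 7 sums hold 28 of the 35 cells of the class. The fitted difference was called (adjusted p = 0.000574), and the call was lost with only the E6.5 embryos without a plate name (adjusted p = 0.104). It was the only member called in this comparison, where 7.36% of genes were called (5.0% lower). Single cells showed the same order, with a count of Egr1 in 67.9% of 78 PrE-like cells and in 2 of the 35 E6.5 endoderm-like cells, both in embryos with too few such cells for a sum. Genes that respond to tissue dissociation, some of which, such as Fos and Jun, are also ERK targets, moved beside it in part. The summed level of 18 such genes, of which Egr1 is not one, had a median of 4172 CPM at E3.5, 3087 in the E4.5 epiblast, 2659 in the PrE, 2165 in the E5.5 epiblast, 2171 in the E6.5 epiblast and 1994 in the E6.5 endoderm. This sum was lower in the E4.5 epiblast than at E3.5, while the mean of Egr1 was higher. Of those tested, 2 of 17 fell and none rose from E4.5 to E5.5 epiblast, against 2.79% of all genes lower. From PrE to E6.5 endoderm 5 of 15 fell and none rose, against 5.0% lower. From E3.5 to the E4.5 epiblast 4 of 17 were called, against 21.4% of all genes: Dnaja1 and Socs3 fell, and Hspb1 and Fosb rose. From E5.5 to E6.5 epiblast 4 of 17 were called, all lower, against 8.52% called over all genes. The part of the dissociation genes in the fall of Egr1 was not tested. Across cells within a stage, the rank correlation between Egr1 and the sum of the 18 genes was 0.08 at E3.5 (99 cells) and 0.11 at E5.5 (259 cells). The median rho of Egr1 with all genes was 0.04 and 0.03 there. These values do not test the fall between stages.

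Sprouty proteins restrain receptor tyrosine kinase signalling. Spry2 (chr14:105891947-105896819 in GRCm38, minus strand) had the highest mean per kilobase of exon of all members in each E3.5, E4.5 and E6.5 class, and its level moved with the plates. At E3.5 it stood at 3140, 345, 460, 625 and 531 CPM in the 5 embryos on plate P8, at 201, 225, 282 and 384 CPM in the 4 on plate P9, and at 49.3 CPM in the 9 cells without an embryo number. It stood at 74.7, 205, 151, 99.2 and 266 CPM in the E4.5 epiblast, and 7 of the 10 E3.5 values were above all of these. The fall was called (log2 fold change -2.06, SE 0.63, adjusted p = 0.0142), but without plate P8 the difference was -0.54 (adjusted p = 0.532), and without E3.5 embryo 1 alone, a sum of 3 cells, it was -1.20 (adjusted p = 0.0758). The 3 cells of embryo 1 held 305, 337 and 7671 CPM, the last in a well labelled double. The call was also lost without wells labelled double (adjusted p = 0.0808), without E4.5 embryo 1 (0.0529) and with the unnamed cells counted as epiblast (0.0548).

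**Figure D2:**
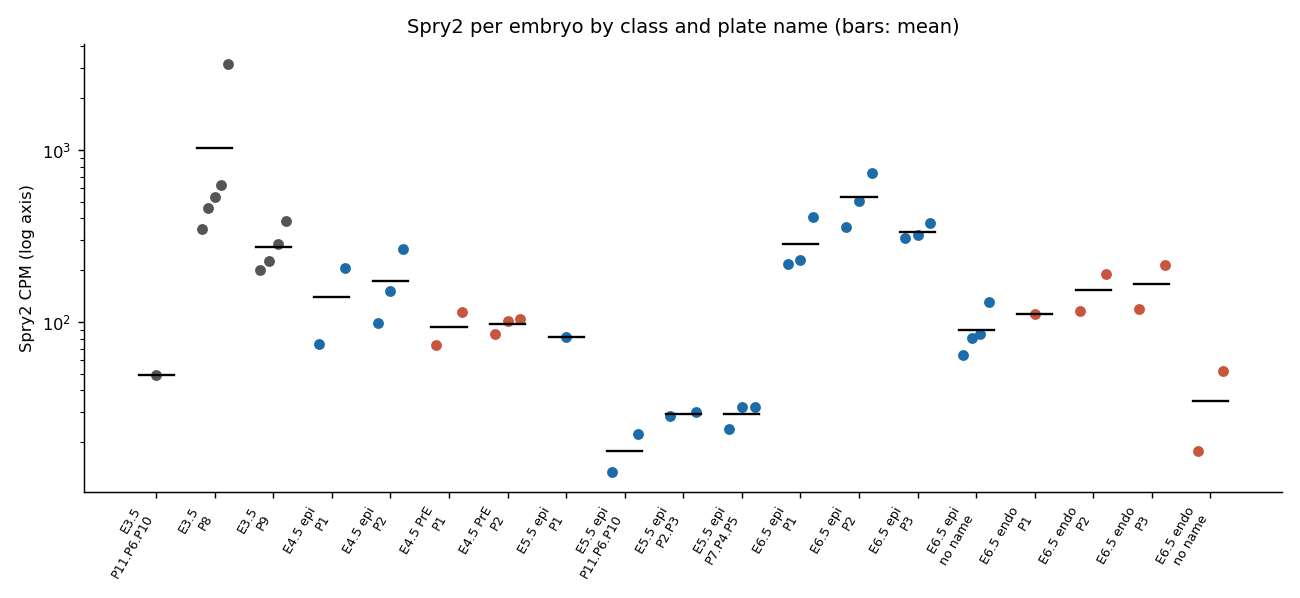
Spry2 (CPM, log axis) in every embryo by class and plate name, with a bar at the mean. The E3.5 embryos on plate P8 lie between 345 and 3140 CPM and those on P9 between 201 and 384 CPM, and the E6.5 epiblast sums on named plates lie above those without a plate name.

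At E5.5 Spry2 had a lowest value of 13.5, a median of 29.1 and a highest of 82.2 CPM (n = 8), below all E4.5 epiblast sums in 7 of 8 embryos (log2 fold change -2.29, SE 0.59, adjusted p = 0.0111). At E6.5 it was 218 to 730 CPM in the 9 epiblast sums on plates P1 to P3 and 64.3 to 130 CPM in the 4 without a plate name. The rise from E5.5 was called with all 13 (log2 fold change 3.19, SE 0.54, adjusted p = 6.66e-05) and not with the 4 alone (1.45, adjusted p = 0.282). Between those E6.5 sums, Spry2 differed by 2.07 (SE 0.33, adjusted p = 0.00188), the only one of the 9 members tested that was called, against 0.911% of all genes. 2 of the 4 sums without a plate name are titled E6.75 and hold 73 of their 82 cells. Without them the difference had a similar size, 1.95, but was not called (edgeR, adjusted p = 0.11), with 2 sums left on that side. Over all 4 sums title age and plate name are partly mixed, and the part of age was not tested. The plate name P11.P6.P10, which joins 3 names, covers cells of E3.5, at 49.3 CPM, and of E5.5, with epiblast sums at 13.5 and 22.2 CPM. The names P1 and P2 also recur between later stages, and whether they stand for the same plates is not given in the labels. The genes whose pattern over the 50 sums was most like that of Spry2 were Wtap (Spearman's rho 0.88) and Slc24a5 (0.84), and both moved with the plates too: the mean of Wtap was 1195 CPM on P8 and 297 on P9 at E3.5, and 608, 655 and 823 on plates P1, P2 and P3 against 144 without a plate name in the E6.5 epiblast. For Spry2, stage and plate cannot be told apart. E3.5 and E4.5 had no plate name in common, and the names that later stages share may stand for different plates. Stage and plate can therefore not be told apart for the stage steps of the other members either.

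The other Sprouty genes were low, and none of their steps along the epiblast passed the test. Spry1 had means of 2.91 CPM at E3.5 and 10.8, 8.43 and 5.93 CPM in the 3 successive epiblast stages. Its exons overlap those of Gm42922 on the other strand, which has no row of its own, and whether the counting used strand is not given in the sources used here. Spry4 was at 11.6 ± 12.3 CPM at E3.5 and 39.0 ± 19.6 in the E4.5 epiblast, where the embryos held 28.7, 54.6, 31.9, 63.7 and 16.2 CPM (log2 fold change 1.65, SE 0.74, adjusted p = 0.1). It stood at 17.2 ± 13.4 CPM at E5.5 and 21.4 ± 7.87 at E6.5.

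Spred1 and Spred2 encode membrane-bound inhibitors of Ras. Spred1 lies at chr2:117121374-117182279 on the plus strand. It was at 0 in 3 of the 10 E3.5 embryos, with a median of 1.74 and a highest value of 41.1 CPM, and at 9.13, 40.0, 106, 27.8 and 55.4 CPM in the E4.5 epiblast. 2 of the 5 were above all E3.5 embryos, and the rise was called (log2 fold change 2.53, SE 0.87, adjusted p = 0.031) but lost without wells labelled double (adjusted p = 0.0619), without E4.5 embryo 3 (0.115) or embryo 5 (0.057). The E5.5 epiblast held 12.1 ± 4.43 CPM and the E6.5 epiblast 49.6 ± 32.9 CPM, and 10 of the 13 E6.5 embryos were above all at E5.5, with adjusted p = 0.0937 in edgeR and 0.0255 in DESeq2. Spred2 did not pass at any step. All 8 E5.5 embryos (3.47 to 16.1 CPM) lay below all 5 of the E4.5 epiblast (30.0, 34.2, 27.4, 35.0 and 30.4 CPM), a gap without overlap that 11.4% of genes showed, yet the log2 difference of -1.45 (SE 0.61) had an adjusted p of 0.154.

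**Figure D3:**
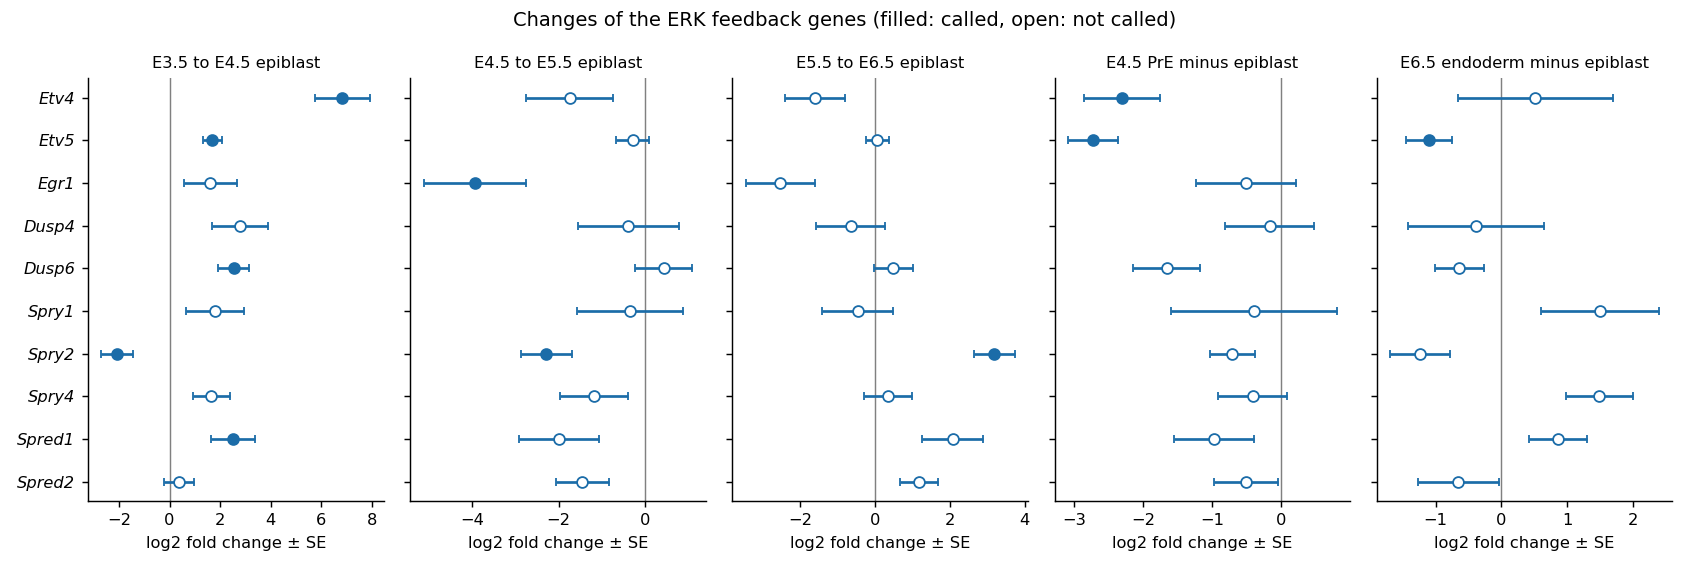
Log2 fold change with its SE for each gene in 5 comparisons, each on its own scale, filled where the gene was called and open where it was not. Etv4, Etv5, Dusp6 and Spred1 are filled to the right and Spry2 to the left from E3.5 to the E4.5 epiblast, and Etv4 and Etv5 are filled to the left in the PrE against the epiblast.

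The lineages were then compared within E4.5. Of the 10 members, 2 were lower in the PrE than in the epiblast and none was higher, against 3.26% and 5.99% of the 9932 genes tested (9.25% in all), and the median of the members was -0.614 against 0.09 over all genes. Etv5 stood at 33.9, 37.0, 24.9, 28.3 and 45.1 CPM in the PrE, below all 5 epiblast sums, and was higher in the epiblast of each of the 5 embryos (log2 difference -2.73, SE 0.36, adjusted p = 0.000132). Groups without overlap were found for 16.6% of genes here. Etv4 stood at 22.3, 15.0, 14.3, 4.58 and 38.0 CPM in the PrE, and was higher in the epiblast in 4 of 5 embryos (-2.30, SE 0.55, adjusted p = 0.00936). This call was lost without embryo 2 (adjusted p = 0.0555) or embryo 3 (0.0585).

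Dusp6 followed the same direction at a smaller size. It stood at 24.0, 9.91, 37.2, 13.6 and 18.9 CPM in the PrE and was higher in the epiblast of all 5 embryos, and its difference of -1.66 (SE 0.48, adjusted p = 0.0299) lay under the log2 limit of 2 and would pass without one, as 16.0% of all genes do. The remaining 7 members had differences from -0.97 for Spred1 to -0.17 for Dusp4 with adjusted p from 0.167 for Spry2 to 0.903 for Dusp4. Egr1 differed little beside its spread (-0.52, SE 0.72, adjusted p = 0.704). From E3.5 to the PrE, 2 members were called against 12.5% of genes. Etv4 rose by 4.49 on the log2 scale (SE 1.42, adjusted p = 0.0335) and Spry2 fell by 2.75 (SE 0.69, adjusted p = 0.00714). The Etv4 call was lost under 5 of 16 alternatives, among them leaving out plate P8 (adjusted p = 0.0641), where Spry2 had -1.32 (adjusted p = 0.118). Etv5 and Dusp6 were not called in that step (-1.06, SE 0.56, adjusted p = 0.248, and 0.88, SE 0.87, adjusted p = 0.622).

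At E6.5, Etv5 was the 1 member called between endoderm-like and epiblast-like cells among the 9 tested, while 8.5% of genes were called. Its lowest, median and highest values were 10.1, 85.5 and 132 CPM in the endoderm (n = 7), and the epiblast was higher in 7 of 7 embryos that had both classes (log2 difference -1.10, SE 0.34, adjusted p = 0.0408). The call was lost under 7 of 12 alternatives, among them with the embryo as a block (-1.41, adjusted p = 0.127), on the named plates alone (-1.31, adjusted p = 0.0999) or without a plate name (-0.70, adjusted p = 0.289). With the embryo as a block, Spry2 was called in its place (-1.23, adjusted p = 0.0227), also higher in the epiblast in 7 of 7 embryos, while 3.63% of genes were called. The other members went both ways. The epiblast was higher in 6 of 7 embryos for Dusp6, in 4 for Spred2, Dusp4 and Egr1 and in 3 for Spry4. It was higher in 2 for Etv4, in 1 for Spred1 and in 0 for Spry1. The endoderm medians were 88.0 CPM for Dusp6 and 1.81 CPM for Etv4. Spry4, with 55.3 ± 56.7 CPM in the endoderm, had a difference of 1.49 (SE 0.51, adjusted p = 0.0668), and Spred1, with 86.0 ± 43.6 CPM, one of 0.86 (SE 0.44, adjusted p = 0.247). From PrE to E6.5 endoderm, Spred1 did not overlap, as 9.1% of genes did not, but was not called (1.88, SE 1.19, adjusted p = 0.425).

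The difference of the lineage contrast between E6.5 and E4.5 was itself tested. edgeR called 0 of 10 members and DESeq2 called 1, against 2.44% of genes in edgeR and 4.53% in DESeq2. In edgeR 4 of the 10 had an unadjusted p under 0.05, a threshold at which all genes were not counted, so this number has no background. Etv5 had the lowest p of the members, with a difference of 1.60 (SE 0.53, adjusted p = 0.103), and passed in DESeq2 (1.74, adjusted p = 0.0356). The drop of Etv5 from epiblast to endoderm at E4.5 was therefore not shown by edgeR to exceed that at E6.5.

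Compared per kilobase of exon, the members held different ranks between stages. At E3.5 the mean levels per kilobase were 299 CPM for Spry2, 16.5 for Etv5, 7.91 for Egr1, 4.98 for Spred2, 3.51 for Dusp6 and 0.25 for Etv4. In the E4.5 epiblast they were 76.3 for Spry2, 56.4 for Etv5, 31.1 for Etv4, 24.8 for Egr1, 21.3 for Dusp6 and 11.1 for Dusp4, with 3.72 to 8.21 for the other 4. In the E6.5 epiblast Spry2 (140 CPM per kilobase), Etv5 (47.6) and Dusp6 (39.7) led. Over the 50 sums, the genes most like Etv5 were Zfp462 (rho 0.82) and Kdm5b (0.80), those most like Dusp6 Fam169a (0.81) and Nap1l1 (0.80), those most like Etv4 Gm17231 (0.73) and Smc1b (0.72), and those most like Egr1 Fam25c (0.87) and Dppa5a (0.83). Among the members, the pairs most alike were Etv4 with Dusp4 (0.68) and Etv5 with Dusp6 (0.56). The sums share stages and plates, so these values describe the set and carry no test.

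The ligand and its receptors changed along with the lineages. Fgf4 was at 149 ± 34.9 CPM in the E4.5 epiblast and 7.62 ± 5.72 in the PrE (log2 difference -4.26, SE 0.54, adjusted p = 0.000109). In the same comparison Fgfr1 was lower in the PrE (-2.68, SE 0.55, adjusted p = 0.00366), and Fgfr2 (2.78, SE 0.66, adjusted p = 0.00939), Fgfr3 (6.43, SE 1.06, adjusted p = 0.000784) and Fgfr4 were higher. Fgfr4 had means of 12.8 CPM in the PrE and 0.0882 CPM in the epiblast, where it rests on 2 counts (adjusted p = 0.00189). The ligand genes Fgf3 (80.8 CPM in the PrE against 2.93, log2 difference 4.83, SE 1.04, adjusted p = 0.00501) and Fgf10 (70.4 against 0.573 CPM, 6.61, SE 0.99, adjusted p = 0.00037) were higher in the PrE as well. At E4.5, Etv4 and Etv5 were thus higher in the class with more Fgf4 and Fgfr1, and lower in the one with more Fgfr2, Fgfr3 and Fgfr4. Along the epiblast the members differed: Fgf4 fell from 76.2 ± 19.14 CPM at E5.5 to 9.64 ± 10.8 at E6.5 (-2.92, SE 0.66, adjusted p = 0.00196), where Etv5 and Dusp6 showed no change past the test. Etv4 went down beside Fgf4 in that step, as given above, also without passing the test. Fgf5 and Fgf8 stood at 167 ± 55.3 and 87.1 ± 70.5 CPM at E6.5. Their E5.5 epiblast sums held 47.7 to 75.3 CPM of Fgf5 and 2.8 to 16.6 CPM of Fgf8. Fgf4 at E3.5, 76.2 ± 56.5 CPM, did not differ past the test from the E4.5 epiblast (0.91, SE 0.78, adjusted p = 0.447), nor did Fgfr1 (-0.60, SE 0.43, adjusted p = 0.347).

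A list of 27 other ERK targets was read beside the members. From E3.5 to the E4.5 epiblast, 4 of 23 rose and 2 fell, with a median of 0.17, beside the 12.4% of all genes that rose and 8.95% that fell. Those with the smallest p were Ccnd1, the G1 cyclin (4.14, SE 0.36, adjusted p = 1.48e-11), Etv1, the third PEA3 factor (5.04, SE 0.73, adjusted p = 1.49e-06), Spred3 (adjusted p = 1.59e-05) and Fosb (adjusted p = 0.00512). Spred3 had means of 0.0206 CPM at E3.5, from 3 counts, and 4.33 CPM in the E4.5 epiblast. Fosb was at 0 in all E3.5 sums and at 1.92 ± 2.64 CPM in the E4.5 epiblast, at least 37.4-fold higher with 3 counts over the E3.5 group as the floor. In PrE against epiblast, 3 of the 17 tested were called, against 9.25% of all genes. Etv1 (-5.53, SE 0.87, adjusted p = 0.000561) and Ccnd1 (-3.93, SE 0.63, adjusted p = 0.000672) were lower, as Etv4 and Etv5 were. Flrt3, a membrane protein that associates with FGF receptors, was higher (5.95, SE 0.83, adjusted p = 0.000206). Ccnd1 and Flrt3 held these directions at E6.5 (-2.45, SE 0.58, adjusted p = 0.00693, and 4.28, SE 0.66, adjusted p = 9.21e-05). Of the ERK cascade itself, from adaptors to kinases, edgeR called 0 of 23 genes between the lineages at E4.5, against 9.25% of all genes. An unadjusted p under 0.05 was found for 6 of the 23, and the share of all genes at that threshold was not counted. From E3.5 to the E4.5 epiblast Pea15a, which binds ERK, rose (3.10, SE 0.81, adjusted p = 0.00383), and 3 of the 26 fell, against the same 12.4% and 8.95% of all genes: the phosphatase gene Ptpn11 (-1.68, SE 0.41, adjusted p = 0.00234), Grb2, the adaptor between receptors and Sos (-1.07, SE 0.36, adjusted p = 0.0246), and Sos2 (-4.56, SE 1.64, adjusted p = 0.0383). Sos2 was low, with means of 8.12 CPM at E3.5 and 0.35 CPM in the E4.5 epiblast, where it rests on 5 counts.

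**Figure D4:**
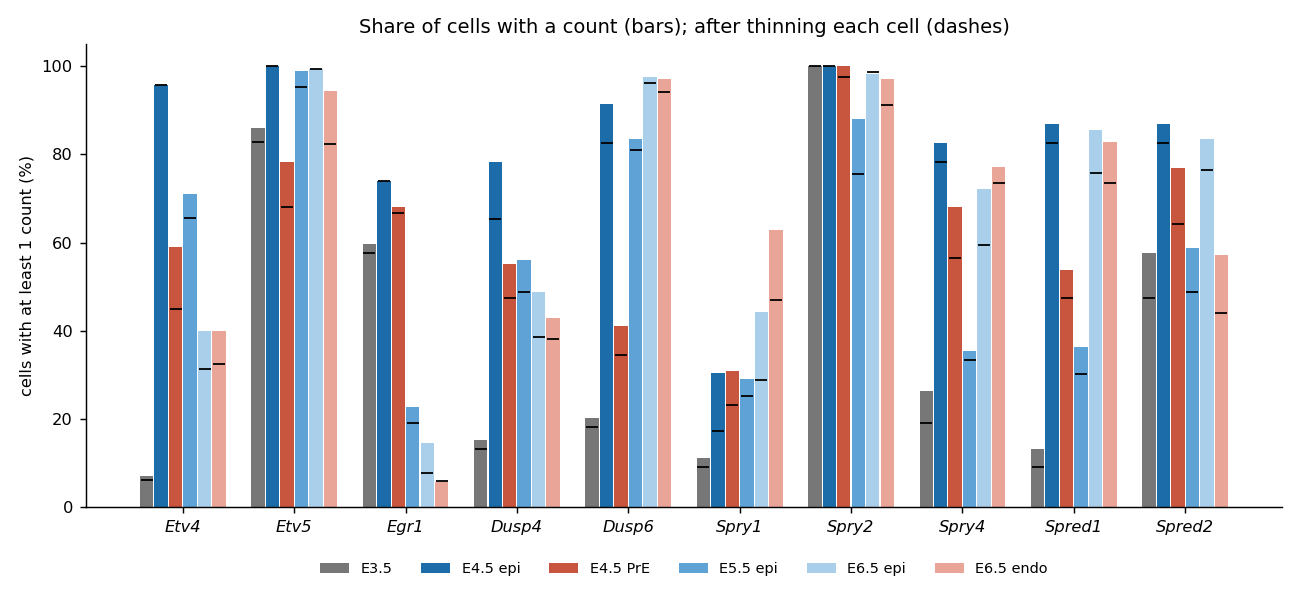
Share of cells with at least 1 count of each gene, by class, and the share after thinning each cell to 150000 counts (dashes). Etv4 is in 7.07% of E3.5 and 95.7% of E4.5 epiblast-like cells, and Spry2 is in every E3.5 cell.

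Single cells gave the same contrast as shares of cells with a count. Etv4 was found in 7.07% of the 99 E3.5 cells, 95.7% of the 23 E4.5 epiblast-like cells and 59.0% of the 78 PrE-like cells, and after thinning each cell to 150000 counts the shares were 6.06%, 95.7% and 44.9%. Dusp6 was found in 20.2%, 91.3% and 41.0% of these cells (18.2%, 82.6% and 34.6% thinned). Etv5 was more even, with 85.9%, 100% and 78.2%, but its median per cell was 58.3, 170 and 14.1 CPM. At E3.5 the sparse members were concentrated, as few cells had them. The tenth of cells with the most held 90.5% of the Dusp6 signal and 94.4% of that of Dusp4, which was in 15.2% of cells. For members found in more cells at E3.5 it held 33.9% (Etv5), 43.0% (Egr1), 45.3% (Spry2) and 51.9% (Spred2). For Dusp6 in the E4.5 epiblast it held 33.9%. Of the 10 members, a median of 4 had a count in an E3.5 cell, 8 in an E4.5 epiblast-like cell, 6 in a PrE-like cell, 6 at E5.5 and 7 in the E6.5 epiblast. These shares are over cells that share embryos and carry no test.

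The primitive streak-like cells, 25 of 26 of which came from 1 embryo without a plate name, gave values only. Egr1 was in 53.8% of them against 14.6% of E6.5 epiblast-like cells, Dusp4 in 96.2% against 48.7% (50% against 7.84% and 83.3% against 38.6% after thinning to 150000 counts), and a median of 9 members had a count in a cell. These cells also had more genes detected, with a median of 9640 against 6907 in the E6.5 epiblast-like cells. All 26 lacked a plate name, while the epiblast-like cells came from named plates as well. The 18 dissociation genes summed to 2872 CPM in the streak-like sum, against a median of 2171 CPM in the E6.5 epiblast sums. The part of these differences in the members' values was not tested. The sum of the 25 cells held 11.3 CPM of Egr1, above the highest E6.5 epiblast sum of 7.32 CPM, 23.1 CPM of Dusp4 and 138 CPM of Etv5, both within the range of the epiblast sums. The only sum of endoderm-like cells at E5.5, from 5 cells, held 17.4 CPM of Etv4, 10.5 CPM of Spry4, 4.42 CPM of Etv5, 3.81 CPM of Dusp6 and 2.89 CPM of Spry2. Egr1, Dusp4, Spry1, Spred1 and Spred2 were at 0 in it.

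Across single E3.5 cells the members showed no common relation to Fgf4 or its receptors. Ranks of log2(CPM + 1) were centred within the 10 embryos, and over 99 cells the median Spearman's rho of the 10 members was -0.03 with Fgf4, 0.04 with Fgfr1 and 0.02 with Fgfr2, against medians of 0.02, 0.03 and 0.03 over the 8608 genes with a count in at least 20% of these cells. With Fgf4 the members ran from -0.26 for Dusp4 to 0.15 for Egr1, and 5 of 10 were above 0, as were 56.7% of those genes. The number was 2 of 10 on single wells or on plate P9 alone. With Fgfr1 they ran from -0.14 for Spry2 to 0.24 for Etv4, with Etv5 at 0.21. With 2.5% left out on each side, those genes ran from -0.21 to 0.26 with Fgf4 and from -0.20 to 0.25 with Fgfr1. Dusp4 with Fgf4 was beyond this range, but Dusp4, with a count in 15.2% of the cells, is like Etv4, Spry1 and Spred1 too sparse to be among those genes. Cells share an embryo, a plate and their depth, and at these low counts a weak rho is a description.

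**Figure D5:**
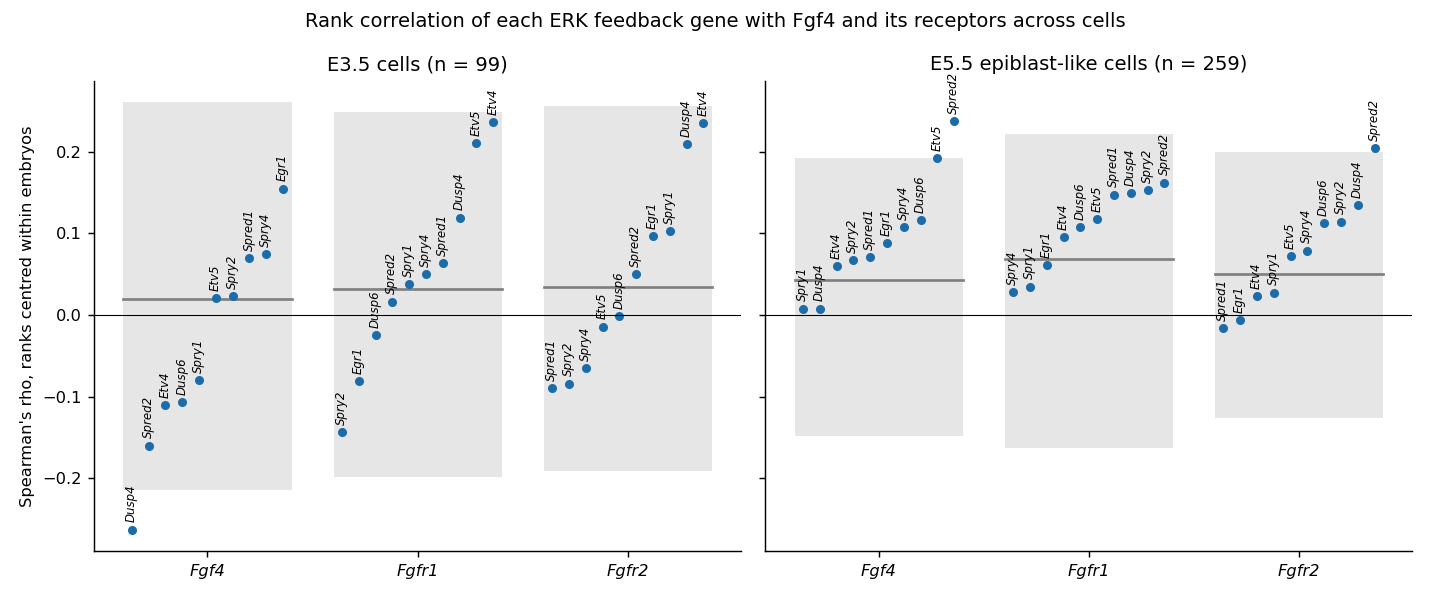
Spearman's rho of each gene with Fgf4, Fgfr1 and Fgfr2 across E3.5 cells (n = 99) and E5.5 epiblast-like cells (n = 259), ranks centred within embryos. Grey bars span the genes with a count in at least 20% of the cells but for 2.5% on each side, with a line at their median. Dusp4 with Fgf4 at E3.5, where Dusp4 is in 15.2% of cells, and Spred2 with Fgf4 and Fgfr2 at E5.5 are the members beyond them.

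Split by Fgf4, the 55 E3.5 cells with a count of it and the 44 without had mean levels of 89.8 and 84.7 CPM of Etv5, 65.7 and 35.4 CPM of Egr1 and 2.57 and 17.5 CPM of Dusp4. The Dusp4 mean rests on the 15 cells that had it. Median depths of the 2 sets were 529319 and 590230 counts, and depth and plate differ between cells of either set. The E5.5 epiblast-like cells, with deeper detection, gave 10 of 10 members above 0 with Fgf4 (median rho 0.08 over 259 cells), led by Spred2 at 0.24 and Etv5 at 0.19. Of the 9369 genes with a count in at least 20% of these cells, 70.0% were above 0 (median 0.04). The members' number was 9 of 10 with the depth rank removed, on single wells and without the largest embryo. The medians with Fgfr1 and Fgfr2 were 0.11 and 0.08 there, against 0.07 and 0.05 over those genes. Among pairs of members, the highest rho at E3.5 were Spred2 with Dusp4 (0.34) and Spry1 with Dusp6 (0.33), where Dusp4, Spry1 and Dusp6 had a count in 15.2%, 11.1% and 20.2% of cells and Spred2 in 57.6%, and at E5.5 Spry2 with Dusp6 (0.24) and with Spred1 (0.23).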

How the data were processed

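The values are whole-number read counts per gene and cell, deposited as 1 table. The authors made them with Smart-seq2 on RNA separated by G&T-seq, aligned trimmed reads to GRCm38 and counted them in SeqMonk, after removing cells of low quality. The submitters' processing notes name Trim Galore 0.4.3 and HISAT2 2.0.5, and the study's methods name other versions of both. Reads carry no molecular identifiers, so intervals of counts would cover counting error only, and none is given. No cell's column was identical to another.

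Members, gene lists and comparisons were chosen with earlier results of these data known, and are named by rule: the 10 members, the FGF ligands and receptors, the called genes of the other lists with the smallest adjusted p (at most 4 a comparison), and the 2 genes most like each member over the 50 sums. Clusters came from a rewritten form of the SC3 steps, with the 90 FGF and ERK genes that have a row held out. Wells labelled double were kept, and no doublet caller was run. Sums were tested with edgeR 4.0.16 (R 4.3.3, TMM, filterByExpr, quasi-likelihood test, Benjamini-Hochberg over all genes), and the scripts were tested on simulated data. DESeq2 1.42.0, relative log expression normalization, dropping the count filter, dropping the fold limit, Ward clustering, single wells, plates, leaving out embryos and an embryo block were the alternatives. Leaving out E3.5 plate P8, E3.5 embryo 1 or cells whose markers oppose their class, counting unnamed clusters as epiblast, and relations on plate P9 alone were added after seeing the data. Single-cell CPM took a pseudocount of 1. Exon lengths and places are from GENCODE M21, and promoter windows from RefSeq. Epiblast and endoderm sums of 1 embryo are paired by that embryo, and the correlation of their deviations from the class means was 0.012 to 0.093 over 5 pairs at E4.5 and 0.031 to 0.21 over 7 at E6.5.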

Additional observations from a re-analysis of the deposited data

Results flagged for a closer look

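8 of the 49 groups of 4 to 10 embryos looked at held an embryo far from the others by Dixon's criterion. Its rate of about 1 in 20 groups by chance holds for independent groups of normally distributed values. The values here are CPM, some from sums of 3 cells, and the groups share embryos. All 8 flagged values were the highest of their group. The 8 of 49 can therefore not be read against that rate, and the flags only describe the values. Spry2 stood at 3140 CPM in E3.5 embryo 1, a sum of 3 cells on plate P8, with the next embryo at 625 CPM. Its cells held 305, 337 and 7671 CPM, the last in a well labelled double. In the same embryo Spred2 stood at 87.7 CPM, with the next at 35.4 CPM. Spred1 stood at 41.1 CPM in E3.5 embryo 2, also a sum of 3 cells, with the next at 14.7 CPM. Etv4 stood at 5.02 CPM in E3.5 embryo 3, again of 3 cells, with the next at 1.58 CPM. Dusp4 stood at 23.0 CPM in E3.5 embryo 7 (next 11.5 CPM) and Spry1 at 15.8 CPM in E3.5 embryo 9 (next 6.57 CPM). In the E5.5 epiblast, Spry2 stood at 82.2 CPM in embryo 9 (next 32 CPM), the only one there under the plate name P1, and Spry4 at 48.7 CPM in embryo 4 (next 18.8 CPM).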

How the results depend on the processing

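The 32 fold changes with an adjusted p of at most 0.05 include those of other genes, such as Fgf5, beside the members. Of their 449 alternative values, 406 kept their direction and call, 41 lost the call, 1 gained it and 1 reversed. The shares of all genes called are given in brackets. From E3.5 to the E4.5 epiblast 3 members were called without wells labelled double in place of 5 (16.6% in place of 21.4%). From E4.5 to E5.5 it was 1 without these wells in place of 2 (5.74% in place of 6.43%). From E5.5 to E6.5 it was 3 with DESeq2, 2 with no filter, 2 without cells of opposed markers and 0 with the E6.5 embryos without a plate name, in place of 1 (10.7%, 14.2%, 8.2% and 1.63% in place of 8.52%). From E3.5 to PrE it was 1 without wells labelled double and 0 without plate P8, in place of 2. From PrE to E6.5 endoderm it was 0 with the embryos without a plate name, in place of 1 (1.48% in place of 7.36%). Between E6.5 endoderm and epiblast it was 3 with DESeq2 (13.2%), in place of 1 (8.5%). It was 0 with relative log expression normalization, with the embryos without a plate name, without cells titled E6.75 and with unnamed clusters counted as epiblast (8.57%, 7.26%, 5.56% and 8.25%). For the difference between the stages it was 1 with DESeq2, with the embryos without a plate name and with unnamed clusters counted, in place of 0 (4.53%, 2.16% and 2.46% in place of 2.44%). Between plates and no plate name it was 0 without cells titled E6.75, in place of 1 (0.202% in place of 0.911%). The median rho with Fgf4 at E3.5 was -0.090 without the largest embryo. Leaving out each E4.5 embryo in turn gave 4 to 5 members from E3.5 to epiblast (17.4% to 18.4% of all genes), 1 to 2 from E4.5 to E5.5 (4.25% to 5.05%) and 1 to 2 from E3.5 to PrE (9.85% to 10.8%). It gave 1 to 2 between the lineages at E4.5 (7.95% to 9.02%), 1 from PrE to E6.5 endoderm (5.49% to 6.19%) and 0 for the difference between the stages (0.977% to 1.49%). Spry1 from E3.5 to PrE turned to -0.063 without wells labelled double, and Fgf5 between E6.5 endoderm and epiblast, called at 1.19, to -0.58 with the embryos without a plate name. The causes were not tested.

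With the embryo as a block, 2 members were called at E4.5 (Etv5 -2.61, adjusted p = 0.000725, and Etv4 -2.53, adjusted p = 0.0203, edgeR), as without it, and 1 at E6.5, where Spry2 took the place of Etv5. Of all genes, 10.1% were called with the block at E4.5 and 3.63% at E6.5. Counts over all genes moved by more than 1.5 times in 7 of the 9 comparisons. From E5.5 to E6.5, 1095 genes became 2769 with no filter and 218 without a plate name. From E3.5 to PrE, 1404 became 2139 with no filter, and from PrE to E6.5 endoderm 826 became 189 without a plate name. Between the lineages, 919 became 1590 at E4.5 with no fold limit. At E6.5, 877 became 1362 with DESeq2, 1581 with no filter, 329 with the block, 387 on plates only and 571 without cells titled E6.75. For the difference between the stages, 295 became 547 with DESeq2 and 121 to 184 without 1 of the E4.5 embryos, and between plates and no plate name 100 became 222 with DESeq2, 53 without wells labelled double and 24 without cells titled E6.75. Ward clustering gave no epiblast-like class at E4.5, so comparisons that need it were not run. With 23 epiblast-like cells at E4.5 and sums of as few as 3 cells, low members such as Spry1 could not be resolved.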
